A study of Mus musculus with 150 samples.

Results

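The genes described here are 8 genes of the fat cell, chosen by name: the adipokine genes Adipoq, Retn and Lep, the secreted protease gene Cfd, the lipid handling genes Fabp4 and Lpl, the enzyme gene Car3, and Nnat. Probe sets annotated to 7 of the 8 were measured, 9 probe sets in all, of 8251 named genes on the array; Cfd was not analysed here. The study hybridized biotin-labelled RNA from adult wild-type inbred mice to 150 one-colour arrays. The 10 body tissues each had 5 arrays, 1 from each of the strains 129, AJ, B6, C3H and DBA. The 24 neural tissues each had 4 to 7 arrays, and 20 of them had both 129 and B6, some with DBA as well. Retina arrays were all from B6. No 129 array was made of motor cortex, and no B6 array of perirhinal or entorhinal cortex, where DBA was used instead. In these tissues, tissue and strain cannot be fully told apart. No group carried a transgene or a treatment in its labels, and the labels give neither an exact age or sex of the animals nor the fat pad behind the samples named white adipose tissue and brown adipose tissue. Sample titles carry identifiers, some of them several to an array, whose meaning as animals or pools is not explained. Of the arrays, 22 of 50 body and 48 of 100 neural ones share an identifier with another tissue of their strain, so arrays may not be independent and p-values measure the spread between these arrays.

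White fat cells store triglyceride in 1 large droplet and secrete hormones, whereas brown fat cells burn fat in their mitochondria through the uncoupling protein Ucp1. Adiponectin (Adipoq), resistin (Retn) and leptin (Lep) are secreted by fat cells, and leptin signals fat stores to the hypothalamus. Lipoprotein lipase (Lpl) releases fatty acids from circulating lipoproteins, and the fatty acid binding protein Fabp4 carries them inside the cell. Car3 encodes a carbonic anhydrase abundant in fat, liver and slow muscle. Nnat, neuronatin, encodes a small membrane protein of the endoplasmic reticulum, is imprinted, and is known from both developing brain and fat.

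RefSeq promoter sequence of build GRCm38.p6 was matched for 5 of the 8 genes, and the last 150 bases before the annotated start are given for the 4 of them with array values, because Lep, Retn and Nnat separated white from brown fat below while Adipoq did not. Capitals mark matches, on either strand, to 4 motifs: the TATA box spelled TATAAA, the CCAAT box, the palindrome TTGCGCAA bound by C/EBP factors, and the GC box spelled GGGCGG. No match overlapped another.
Adipoq, chr16:23146386-23146535, + strand: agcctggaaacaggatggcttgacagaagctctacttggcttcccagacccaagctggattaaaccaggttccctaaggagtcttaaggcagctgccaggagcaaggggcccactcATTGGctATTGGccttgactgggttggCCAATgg
Retn, chr8:3655620-3655769, + strand: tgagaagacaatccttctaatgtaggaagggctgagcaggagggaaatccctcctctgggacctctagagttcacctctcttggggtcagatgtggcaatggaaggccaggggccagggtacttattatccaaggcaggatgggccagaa
Lep, chr6:29060071-29060220, + strand: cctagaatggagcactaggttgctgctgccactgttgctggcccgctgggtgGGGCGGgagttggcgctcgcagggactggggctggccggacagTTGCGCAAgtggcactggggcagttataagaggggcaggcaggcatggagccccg
Nnat, chr2:157559928-157560077, + strand: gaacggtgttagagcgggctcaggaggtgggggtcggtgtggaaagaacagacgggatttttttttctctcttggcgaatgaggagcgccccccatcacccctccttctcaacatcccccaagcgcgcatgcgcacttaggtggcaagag
The Lep window held 1 match to TTGCGCAA, 55 bases before the start, a motif in 0.113% of 32817 promoter windows of this length, and 1 match to GGGCGG, held by 28.6%. The Adipoq window held 3 matches to CCAAT, held by 24.5% of windows. TATAAA, held by 7.58%, was in none of the 4 windows. A match is a description of these letters and not a measured binding site.

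Values are array intensities as deposited. Before log2 was taken, any intensity under 10.4 (the 20th percentile over the whole table) was set to 10.4, the floor, and a gene there has only an upper bound. The 75th percentile of intensity ran from 167 to 185 over the arrays, so their overall levels were alike. A pair of arrays with different labels held identical values and was left out, which left 148 arrays. The tissue labels were matched by defining markers: Ucp1 read 1748 to 2949.6 in brown fat and 10.5 to 33.2 in white fat, and the steroid enzyme gene Cyp11a1 read 3286 to 4194 in adrenal and at most 13.8 in both fats. Skeletal muscle RNA was present on 4 brown fat arrays, where the skeletal actin gene Acta1 read 4750.3 to 7611, against 14.4 on the DBA brown fat array. The muscle creatine kinase gene Ckm read 118 to 539 on the same 4 arrays. In white fat Acta1 read 76.1 to 1037, but Ckm only 10.4 to 28.3. In bulk tissue, fewer cells of a type and less RNA per cell cannot be told apart.

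The 7 measured genes were all higher in the 2 fat depots than in the 8 lean body tissues, mean against mean. The lean tissues were adrenal, heart, kidney, liver, muscle, spleen, testes and thymus. Single lean tissues did reach the level of fat, such as heart for Lpl and liver for Car3. Differences of fitted log2 means ran from 2.70 to 5.63, and a gene counted as higher or lower when limma's adjusted p was under 0.05 and the log2 difference exceeded 1. Of 6680 genes tested, 9.36% were higher in fat by the same rule; against the lean tissues, 11.9% were higher in white fat alone and 12.2% in brown fat alone, and the 7 genes were higher in each. These genes passed the filter on low values through fat, where they are known to be high, so their count is a description.

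Adipoq, the adiponectin gene (probe set 99104_at), was about equally bright in both depots. Its intensities in white fat were 6284, 6554, 5773, 4511 and 5486 in 129, AJ, B6, C3H and DBA, the order of strains used throughout. In brown fat they were 6350.3, 5244, 5412, 4930.3 and 7386. The depots overlapped in part, and both lay above every lean array. The fat depots exceeded the lean tissues by 5.37 ± 0.30 (SE) in log2, 41.5-fold, with adjusted p = 1.72e-19.

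Retn, the resistin gene (102366_at), read 3693, 5527, 3440.2, 4509 and 3473 in white fat. In brown fat it read 608, 899, 614, 222 and 736. White fat lay above brown fat in all 5 strains without overlap, at 4.72 to 20.3 times the brown value of the same strain. In liver and spleen all 5 arrays each were at the floor, so white fat was at least 390.2-fold and brown fat at least 53.8-fold brighter there.

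Lep, the leptin gene, had 2 probe sets. On the brighter, 98443_at, white fat read 4021, 3217, 1756, 2000.0 and 2613. Brown fat read 216, 310.3, 427, 438 and 1714, the DBA array being far above the other 4. This probe set was never near the floor, reading at least 84.8 on every body array and 104 to 389 on the neural arrays. The other probe set, 98444_g_at, fell below the floor on some arrays. It read 2096, 1508, 666, 867 and 1177 in white fat and 21.2, 69.7, 118, 134 and 394 in brown fat. On both, white fat stood above every other tissue without overlap, though on the brighter one the lowest white array (1756) was close to the DBA brown array. Brown fat overlapped adrenal (169 to 588) and muscle (205 to 325) on the brighter probe set.

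Fabp4, the fatty acid binding protein gene (100567_at), read 2228, 1918, 1406, 1109 and 2478 in white fat and 2052, 3082, 4257, 2354 and 5334 in brown fat. Brown fat was the brighter depot in 4 of 5 strains, and the depots overlapped. Lpl, the lipoprotein lipase gene (95611_at), read 5914, 6886, 4891, 4401 and 5519 in white fat. In brown fat it read 9001, 7641, 5516, 5180.4 and 9629, above the white fat array of the same strain in all 5 strains. Car3 (160375_at) read 5272 to 6845 in white fat and 4708 to 8163 in brown fat, with overlap.

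Nnat (97520_s_at) was brightest in white fat among the body tissues. It read 6375, 3395, 3949.7, 3052 and 4067 in white fat, against 120.0, 151, 395, 305 and 723 in brown fat. The groups were far apart, with white fat at 5.62 to 53.1 times the brown value of the same strain. The lean body arrays ran from below the floor to 574, the highest being the 129 adrenal.

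**Figure D1:**
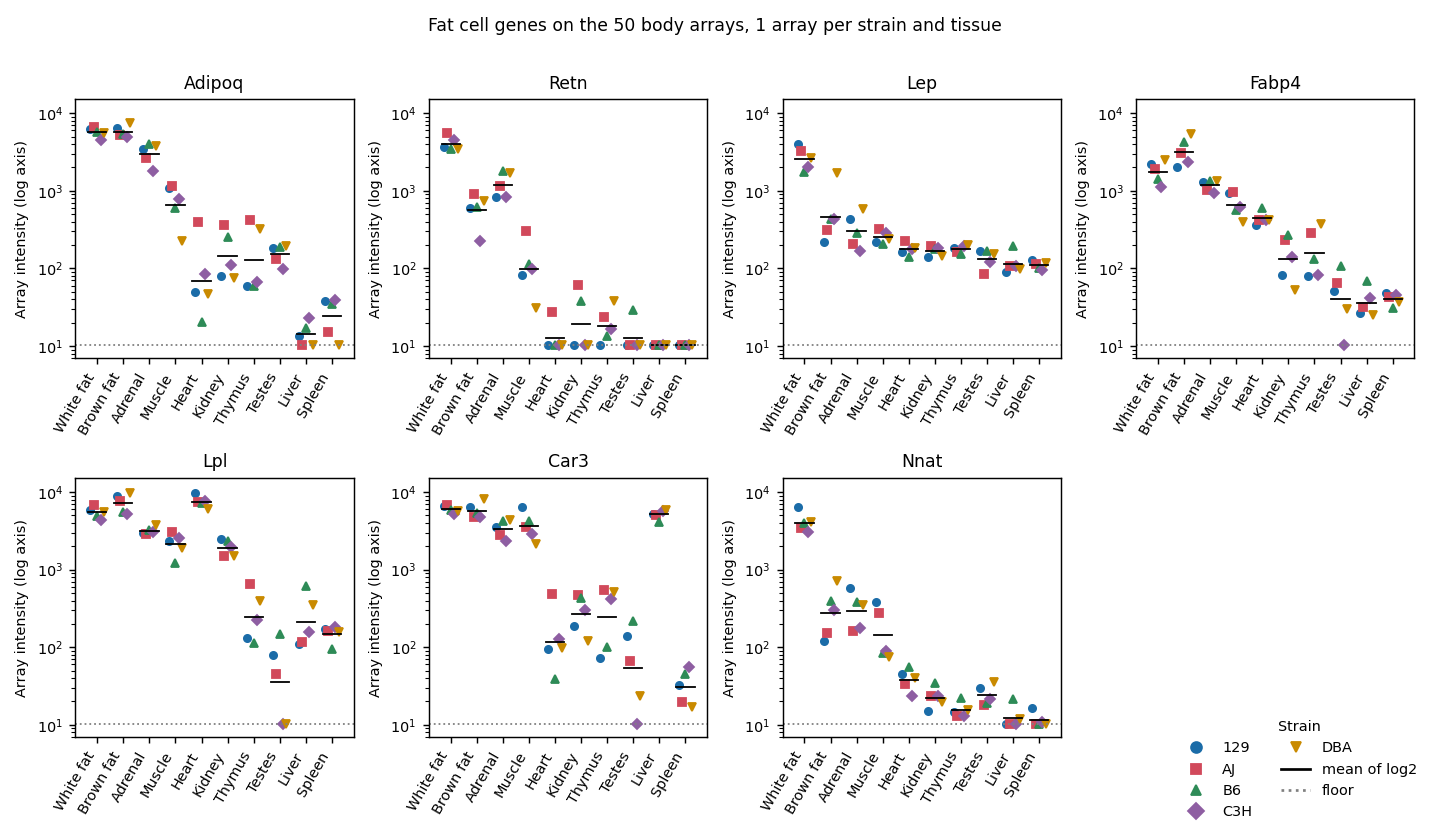
Intensity of each gene (log axis) in the 10 body tissues, 1 symbol per array and strain; the black bar is the mean of log2 values and the dotted line the floor of 10.4. White fat stands above brown fat for Retn, Lep and Nnat, while Adipoq, Fabp4, Lpl and Car3 overlap between depots, and Car3 in liver (4101 to 5793) and Lpl in heart (5993 to 9704) reach the level of fat.

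White fat was compared with brown fat within the fit of all 50 body arrays. Of the 7 genes, 3 were higher in white fat and none was lower, where 12.2% of all tested genes were higher and 12.5% lower. Nnat differed by 3.87 ± 0.38 in log2 (adjusted p = 1.63e-11), 14.6-fold. Retn differed by 2.86 ± 0.40 (adjusted p = 7.77e-08), 7.25-fold. Lep differed by 2.49 ± 0.31 (adjusted p = 7.10e-09), 5.60-fold, and its other probe set by 3.57 (adjusted p = 5.34e-08). The DBA brown fat array was the brightest brown array for all of the 7 genes but Retn. Without it, these 3 differences were 4.23 for Nnat, 3.01 for Retn and 2.93 for Lep.

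The other 4 genes did not pass. Fabp4 differed by -0.87 ± 0.41 (adjusted p = 0.071) and, without the DBA white fat array, by -1.02 (adjusted p = 0.048). Lpl differed by -0.39 ± 0.48, Adipoq by -0.03 ± 0.53 and Car3 by 0.07 ± 0.57; these errors leave differences of about 1 log2 unit undetectable. Under quantile normalization the values for Lpl and Adipoq had the other sign, 0.32 and 0.68, and neither passed.

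Brown fat marker and muscle marker lists moved with this comparison. All 12 measured brown fat markers of 16 listed were lower in white fat, with a median difference of -4.82 against -0.02 over all genes. Of the 11 skeletal muscle markers, 10 were tested and 9 were lower in white fat, with a median of -3.18. The mean log2 level of the muscle list ran from 4.78 to 9.35 over the brown fat arrays and from 4.35 to 4.95 over the white. The part of muscle RNA in the depot differences was not tested.

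Other fat cell genes were compared between the depots by list. Of 12 tested genes of fat and sugar synthesis, 8 were lower and none higher in white fat, with a median of -1.61: Elovl6, a fatty acid elongase, by -3.76 ± 0.47, malic enzyme Me1 by -1.70 ± 0.29, the citrate carrier Slc25a1 by -1.67 ± 0.24 and ATP citrate lyase Acly by -1.64 ± 0.25. Of 17 genes of fat storage and breakdown, 1 was higher, the droplet coat gene Plin4 at 1.21 ± 0.28, and 3 were lower, Gpd1 at -2.67 ± 0.43, Plin2 at -1.64 ± 0.26 and Gpam at -1.39 ± 0.19. Among 15 transcription factor and hormone signalling genes, Agt, angiotensinogen, was 3.72 ± 0.66 higher, the growth hormone receptor gene Ghr 1.79 ± 0.26 higher and Cebpb 2.84 ± 0.30 lower in white fat. Their median was -0.17. The complement genes Cfp, C1qa and C1qc, which macrophages express, were higher in white fat, Cfp by 2.56 ± 0.29, C1qa by 2.21 ± 0.24 and C1qc by 2.19 ± 0.29. They moved with a macrophage marker list whose mean log2 level was 6.89 to 7.21 in white and 5.47 to 6.10 in brown fat. The partner list had 3 of 14 higher and 2 lower (median 0.30), and the paralogue list 3 of 20 higher and 4 lower (median -0.33). The lowest paralogue was Fabp3, a heart and muscle fatty acid binding protein that is also on the brown fat marker list, at -6.94 ± 0.36.

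Against the lean tissues, the lists of fat storage and of fat and sugar synthesis were higher in fat throughout. All 17 genes of fat storage and breakdown were higher in the depots (median 2.78, against -0.10 over all genes), led by the droplet protein gene Cidec at 6.23 ± 0.25, Plin4 at 5.38 ± 0.15, hormone-sensitive lipase Lipe at 3.80 ± 0.18 and caveolin Cav1 at 3.52 ± 0.14. All 12 of fat and sugar synthesis were higher (median 2.53), with Pck1 at 3.90 ± 0.28 and Thrsp at 3.87 ± 0.29. Of 15 transcription factor and hormone genes, 10 were higher and none lower (median 1.24), with Pparg, the master regulator of fat cell formation, at 4.50 ± 0.18, the retinol carrier Rbp4 at 4.22 ± 0.27 and Cebpa at 3.12 ± 0.15. Of 14 receptor, activator and partner genes, 5 were higher and none lower (median 0.49), among them the Lpl inhibitor Angptl4 at 2.18 ± 0.18, the adiponectin receptor Adipor2 at 2.07 ± 0.07 and the adiponectin binding cadherin Cdh13 at 1.64 ± 0.13. Of 20 paralogues, 3 were higher and 5 lower (median -0.24), Fabp5 being higher by 2.40 ± 0.24.

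Among lean tissues, the adrenal gland had the highest mean level of 5 of the 7 genes, Lep on its brighter probe set alone; Car3 was higher in liver and muscle, and Lpl in heart. Relative to the other 7 lean tissues, 6 of the 7 genes were higher in adrenal, where 10.1% of all genes were. The genes were chosen with earlier results of these data known and passed the filter on low values through fat. This count and those for the other lean tissues below are therefore descriptions. Retn stood highest at 6.06 ± 0.30 in log2 (adjusted p = 9.72e-21), 66.6-fold, followed by Adipoq at 5.08 ± 0.40 (adjusted p = 3.79e-14), 33.8-fold. Nnat differed by 3.55 ± 0.29, Car3 by 3.46 ± 0.43, Fabp4 by 3.29 ± 0.31 and Lpl by 2.65 ± 0.36, the last by 1.43 (adjusted p = 0.0077) on its second probe set. Lep differed by 0.95 ± 0.23 (adjusted p = 6.01e-04), just under the log2 threshold of 1; it passed without the C3H (1.15) or the AJ (1.09) adrenal array, and on its other probe set it was 0.45 (adjusted p = 0.29).

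The signal was present on every adrenal array. Adipoq read 3458, 2672, 3983, 1799 and 3764 there, and Retn 829, 1166, 1813, 823 and 1698. All 5 Adipoq values lay above every array of the other 7 lean tissues, the next being muscle at 222 to 1137, and below every fat array. Retn in adrenal exceeded Retn in brown fat in all 5 strains, with a brown to adrenal ratio of 0.27 to 0.77, though the groups overlapped across strains.

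As a percentage of the white fat array of the same strain, the adrenal medians fell into a higher and a lower range. The median was 66.1% for Lpl, 58.6% for Fabp4, 55.0% for Adipoq and 53.3% for Car3. It was 22.4% for Retn, 10.6% for Lep and 8.74% for Nnat. Single arrays overlapped, Retn reaching 52.7% and Adipoq starting at 39.9%, and on the second Lpl probe set the median was 36.9% (3.41% to 61.7%). The 3 genes with low shares are those that were higher in white than in brown fat, and in brown fat itself their medians were 16.5%, 21.9% and 9.99%. Both comparisons use the same white fat arrays, so a gene very bright there tends to a low share. The match is thus no independent observation. For Lep the second probe set gave a share of 2.46% in adrenal and 15.5% in brown fat. Adrenal hardly stood out for Lep. In the other lean tissues its median share was 3.74% (liver) to 10.1% (muscle) on the brighter probe set. On the second it was 0.249% (spleen) to 5.71% (muscle). On that probe set 4 spleen arrays and the C3H adrenal array were at the floor, so the spleen share is no measured level.

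**Figure D2:**
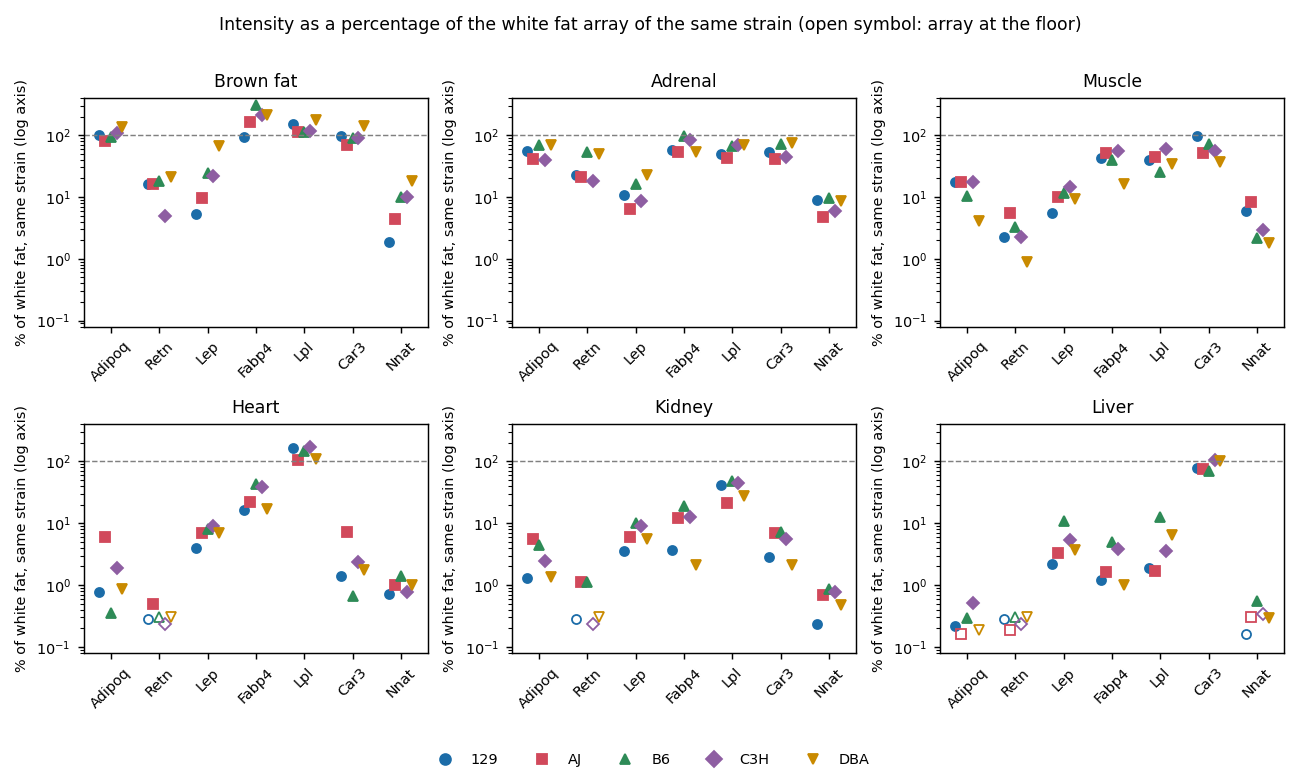
Intensity of each gene as a percentage of the white fat array of the same strain (log axis), 1 symbol per strain, in 6 tissues; open symbols are arrays at the floor and the dashed line is 100%. In brown fat the symbols for Retn, Lep and Nnat lie below those for Adipoq, Fabp4, Lpl and Car3, in adrenal those for Lep and Nnat do while Retn (18.2% to 52.7%) overlaps them, and in heart and liver single genes (Lpl, Car3) stand alone near 100%.

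Brown fat markers were also present in adrenal. Ucp1 read 730, 495, 443, 671 and 179 on the adrenal arrays, a median of 18.6% of the same-strain brown fat. Cidea, a droplet protein gene typical of brown fat in mice, read 2387 to 3229, a median of 33.5% of brown fat, while white fat was at 20.2 to 223. Of the 12 measured brown fat markers, 7 were higher in adrenal than in the other lean tissues and none was lower, with a median of 1.30 against -0.03 over all genes. The list's mean log2 level was 7.10 to 7.58 in adrenal, 9.29 to 9.68 in brown fat and 4.36 to 5.03 in white fat, and no marker of it was at the floor on all adrenal arrays. The part of brown fat RNA in the adrenal values of the 7 genes was not tested.

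The lists of fat cell genes were counted in adrenal as well, where 10.1% of all genes were higher and 9.03% lower. The counts given below for the partner and paralogue lists lie near these shares. Of 17 genes of fat storage and breakdown, 15 were higher (median 1.85), led by Cidec at 5.30 ± 0.33, Plin4 at 3.80 ± 0.21, Gpd1 at 3.11 ± 0.33 and Lipe at 2.58 ± 0.25. All 12 of fat and sugar synthesis were higher (median 2.93), with Elovl6 at 4.44 ± 0.36, Thrsp at 3.64 ± 0.39, Pck1 at 3.38 ± 0.38 and Fasn, fatty acid synthase, at 3.02 ± 0.29. Of 15 transcription factor and hormone genes 5 were higher (median 0.59), with Pparg at 3.54 ± 0.25, Rbp4 at 3.20 ± 0.37, Cebpb at 2.08 ± 0.23 and Cebpa at 2.01 ± 0.20. Angptl4 at 1.85 ± 0.25 and Adipor2 at 1.48 ± 0.10 were the 2 of 14 partner genes that were higher (median -0.24), and 1 of 20 paralogues, Fabp5 at 1.65 ± 0.32, was higher and 2 were lower (median -0.26). The skeletal muscle list differed among the adrenal arrays, from a mean log2 of 4.25 to 8.33, with Acta1 at 3455 in 129, 295 in B6 and 10.4 to 12.1 in the other 3 strains. Liver markers differed too, with a list mean of 7.90 on the DBA adrenal array, 6.54 on C3H, 5.78 on B6 and 4.96 to 4.99 on AJ and 129, against 4.60 to 4.88 in white fat and 4.50 to 7.02 in brown fat. Rbp4, Pck1 and Car3 are also expressed in liver. The part of muscle and liver RNA in the adrenal values was not tested.

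**Figure D3:**
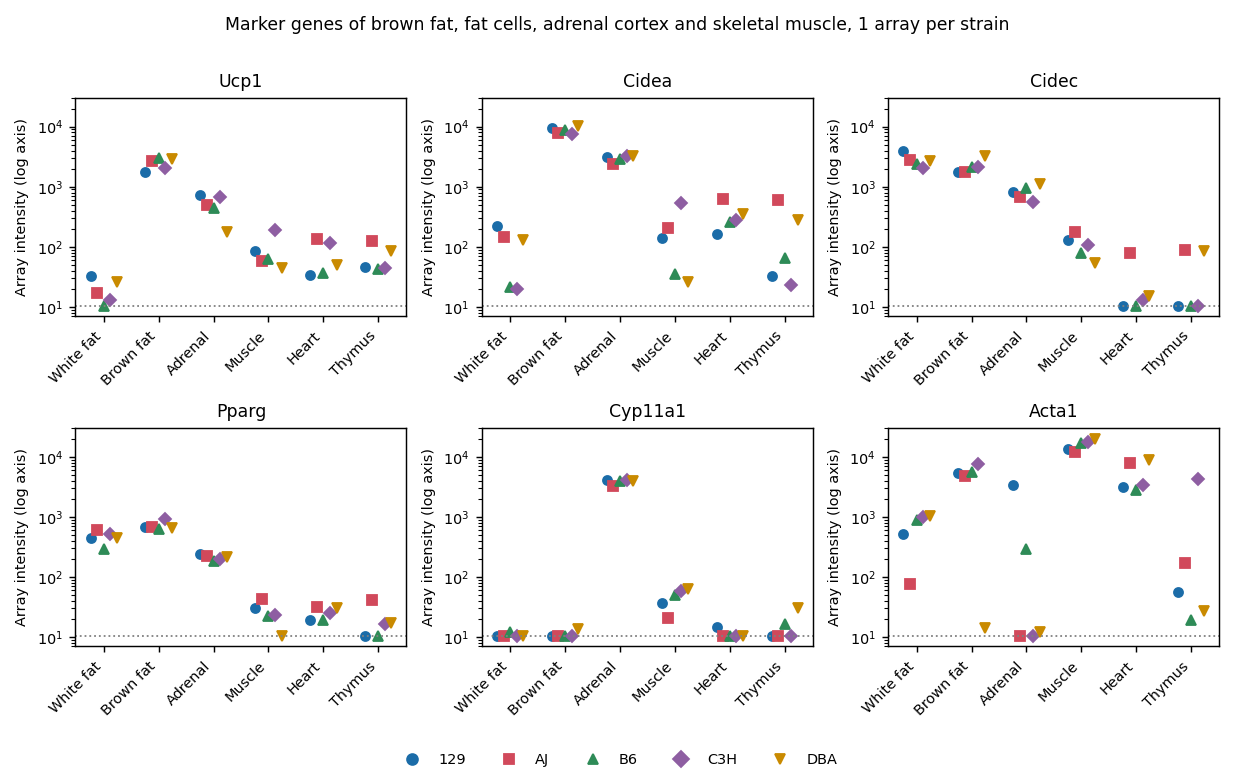
Intensity (log axis) of the brown fat markers Ucp1 and Cidea, the fat cell genes Cidec and Pparg, the adrenal cortex gene Cyp11a1 and the skeletal muscle gene Acta1 in 6 body tissues, 1 symbol per strain; the dotted line is the floor. Ucp1 and Cidea in adrenal lie between brown and white fat, Cyp11a1 reads 3286 to 4194 in adrenal and at most 64.3 in the other 5 tissues shown, and Acta1 varies widely between brown fat, adrenal and thymus arrays.

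Muscle was the next lean tissue in this order. There 6 of the 7 genes were higher than in the other lean tissues, where 13.9% of all genes were: Car3 by 3.58 ± 0.43, Adipoq by 2.59 ± 0.40, Nnat by 2.36 ± 0.29, Fabp4 by 2.35 ± 0.31, Lpl by 1.99 ± 0.36 and Retn by 1.93 ± 0.30. With the floor at the 40th percentile the Retn difference was 0.81 and did not pass. Adipoq in muscle read 1080.2, 1137, 606, 784 and 222, a median of 17.2% of white fat. Car3 read 6449, 3552, 4266, 2891 and 2119, a median of 54.8%. The DBA muscle array was the lowest of the 5 for Adipoq, Retn (31.0), Fabp4 (399), Nnat (74.1) and Car3.

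In heart, kidney and liver only a few genes of the group passed as higher than in the other lean tissues. In heart, Lpl was 4.07 ± 0.36 higher than in the other lean tissues (adjusted p = 5.22e-13), at 9704, 7394, 7273, 7606 and 5993, a median of 149% of white fat. Fabp4 was 1.68 ± 0.31 higher there, while Car3 at -2.06 ± 0.43, Retn at -1.45 ± 0.30 and Adipoq at -1.14 ± 0.40 were lower; the backgrounds were 13.5% higher and 10.7% lower. The calls for Adipoq and Retn were lost when adrenal was left out of the reference (-0.42 and -0.59), and that for Adipoq also without the 129 heart array (-1.01, adjusted p = 0.052) or the B6 one (-0.67). In kidney, 1 gene passed, Lpl at 1.81 ± 0.36, where 12.5% of genes were higher. In liver, Car3 was 4.17 ± 0.43 higher, with 13.7% of genes higher, at 5253, 5079.8, 4101, 5654 and 5793, a median of 78.5% of white fat.

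Liver and spleen were otherwise the tissues with the least signal. In liver 5 of the 7 were lower (22.5% of all genes were), Adipoq by -3.75 ± 0.40 and reading 7.38 to 23.2. In spleen 6 were lower (20.9% of all genes were), Car3 by -4.27 ± 0.43 and Adipoq by -2.87 ± 0.40. In testes Lpl at -4.75 ± 0.36, Car3 at -3.33 ± 0.43, Fabp4 at -2.24 ± 0.31 and Retn at -1.43 ± 0.30 were lower (25.5% of all genes were), yet Adipoq there read 97.7 to 192, above liver and spleen without overlap. In thymus Lpl at -1.58 ± 0.36 and Nnat at -1.31 ± 0.29 were lower (16.7% of all genes were). The Retn calls in liver, spleen and testes were lost when adrenal was left out of the reference (-0.92, -0.92 and -0.57), as was that for Nnat in thymus (-0.82). With the floor at the 40th percentile the Nnat calls in liver, spleen and thymus were lost (-0.81 each), and without a floor that in thymus (-0.94).

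**Figure D4:**
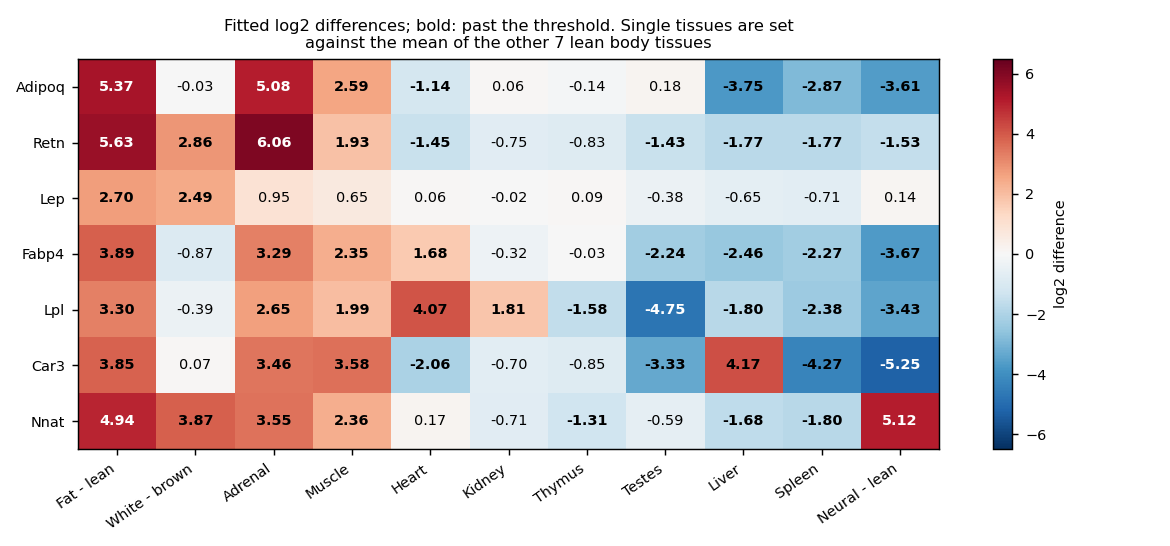
Fitted log2 differences of the 7 genes in 11 contrasts, with values past the threshold (adjusted p under 0.05 and a log2 difference over 1) in bold; single tissues are set against the mean of the other 7 lean body tissues. Adrenal and muscle have 6 positive calls each, spleen 6 negative ones, and Nnat is the 1 gene with a positive call in neural tissue.

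Within a tissue, single arrays differed in several fat cell genes at once. The AJ heart array read 399 for Adipoq against 20.2 to 85.1 on the other 4, 492 for Car3 against 39.0 to 127 and 27.5 for Retn against at most 2.93. Cidec read 79.8 there and at most 15.4 on the others, while Fabp4 (418) and Lpl (7394) lay within the range of the others. The AJ and DBA thymus arrays read 426 and 323 for Adipoq against 58.9 to 67.7, 287 and 377 for Fabp4 against 80.1 to 133, and 657 and 389 for Lpl against 114 to 223. Cidec was at 90.0 and 84.9 on them and at the floor on the other 3. The C3H thymus array read 421 for Car3 but 67.7 for Adipoq, and was the thymus array with the brightest Acta1, 4235. The AJ and B6 kidney arrays read 359.9 and 256 for Adipoq against 74.9 to 109, and 61.5 and 37.9 for Retn against at most 8.36.

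Across the 40 lean arrays, after each tissue's mean was removed, Adipoq correlated with Car3 at r = 0.73, with Retn at 0.70 and with Fabp4 at 0.54. Over all 21 pairs of the 7 genes, r ran from 0.02 to 0.73 with a median of 0.35. Before the means were removed the range was 0.40 to 0.88. Both values of a pair come from the same array, so these are descriptions with no test.

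No gene of the group differed among strains past the threshold in fat or in the body tissues. In the 10 fat arrays, 0 of the 7 genes and 2 of 5124 genes (0.039%) passed limma's F test, with 338 of all genes at an unadjusted p under 0.05, none of them a member; the lowest adjusted p among the 7 was 0.79, for Lpl. Over the 50 body arrays 0 of the 7 passed, while 13.5% of all genes did, and 1 member, Retn, had an unadjusted p under 0.05. Retn came nearest, highest in AJ and lowest in C3H by 0.89 in log2 (adjusted p = 0.070). Without the AJ testes, the DBA muscle or the DBA thymus array, 1 of the 7 genes passed.

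Neural tissues had little signal for most of the group. Over tissue means, 24 neural against 8 lean body tissues, 5 of the 7 genes were lower in neural tissue (13.5% of all genes were) and 1 was higher (14.7% of all genes were). Car3 differed by -5.25 ± 0.55 (adjusted p = 1.67e-09), Fabp4 by -3.67 ± 0.40, Adipoq by -3.61 ± 0.47, Lpl by -3.43 ± 0.77 and Retn by -1.53 ± 0.46. Retn was at the floor on 97 of 98 neural arrays, Car3 on 93, Adipoq on 74 and Fabp4 on 61. Their differences are limited by the floor, and these 4 genes were too dim to be tested among neural tissues. They passed the filter on low values through the lean body tissues, so only a lower call was open to them and their count is a description. The Retn call rested on adrenal: without it the difference was -0.78. Lep differed by 0.14 ± 0.15 and did not pass; its second probe set differed by 0.99 (adjusted p = 0.0015), under the log2 threshold.

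White fat stood at least 583-fold above the 21 neural tissues where all arrays read Car3 at the floor, and at least 546-fold above the 9 where all read Adipoq there. The highest neural values were 51.8 for Adipoq and 90.8 for Fabp4. Of the storage and breakdown list, 11 of 17 genes were lower in neural tissue and none was higher (median -1.49, against -0.05 over all genes), Plin2 by -2.70 ± 0.34 and Pnpla2, the adipose triglyceride lipase gene, by -2.51 ± 0.27. Of the synthesis list 4 of 12 were lower and 2 higher (median -0.54), Scd2, a desaturase, by 3.18 ± 0.40 and Elovl6 by 1.58 ± 0.43. Of the transcription and hormone list 6 of 15 were lower and 1 higher (median -0.97). The partner list had 3 of 14 lower and 1 higher (median -0.35), the latter Blcap at 1.55 ± 0.17, and the paralogue list 4 of 23 in each direction (median -0.13), with Fabp7, the brain fatty acid binding protein, at 4.22 ± 0.65.

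Nnat was the gene of the group with a neural level to match white fat. It was 5.12 ± 0.61 higher in neural than in lean body tissues (adjusted p = 2.39e-08). The pituitary read 9958, 10302, 10309 and 10325, above all 5 white fat arrays. Arrays of the pituitary, hypothalamus, entorhinal cortex and perirhinal cortex, 11 of the 98 in all, lay above the lowest white fat array of 3052. In entorhinal cortex these were the DBA arrays alone (3861 and 5857), and its 129 arrays read at most 2710. In perirhinal cortex it was 1 DBA array (3504), and its 129 arrays read 1295 and 1537. The retina was lowest, at 99.9 to 114 on 4 arrays, all of strain B6.

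Among neural tissues Nnat was higher in 5 and lower in 5, each against the mean of the other 23. Over all tested genes and all 24 tissues, 3.96% of contrasts were higher and 3.37% lower. The higher ones were pituitary (3.30 ± 0.14), hypothalamus (1.79 ± 0.14), entorhinal cortex (1.27 ± 0.15), amygdala (1.13 ± 0.14) and PAG, the periaqueductal grey (1.10 ± 0.14). The lower ones were retina (-3.63 ± 0.14), motor cortex (-3.18 ± 0.15), choroid plexus (-2.60 ± 0.14), cerebellum (-1.79 ± 0.14) and cortex (-1.65 ± 0.14). Entorhinal cortex read 3861 and 5857 on its DBA arrays and 2196 and 2709.9 on its 129 arrays. In the order of tissue means, the pituitary stood apart from white fat, and neighbours from white fat down to BNST overlapped.

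Lpl was ordered differently among neural tissues. It was higher in striatum (3.02 ± 0.28), hippocampus CA3 (2.95 ± 0.25), dentate gyrus (2.90 ± 0.28), whole hippocampus (2.19 ± 0.32), hippocampus CA1 (2.13 ± 0.22), pituitary (1.97 ± 0.28) and entorhinal cortex (1.35 ± 0.30). CA3 read 262 to 951 on 5 arrays and striatum 331 to 568 on 4. It was lower in 9 tissues, from olfactory bulbs (-2.22 ± 0.28) and cerebellum (-2.10 ± 0.28) to pons (-1.34 ± 0.28). Olfactory bulbs read 8.45 to 21.1. On the second probe set (160083_at), 47 of 98 neural arrays were at the floor and the 9 lower calls and that for entorhinal cortex were lost, while the other 6 higher ones passed. No neural array reached the lowest white fat array, 4401.

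**Figure D5:**
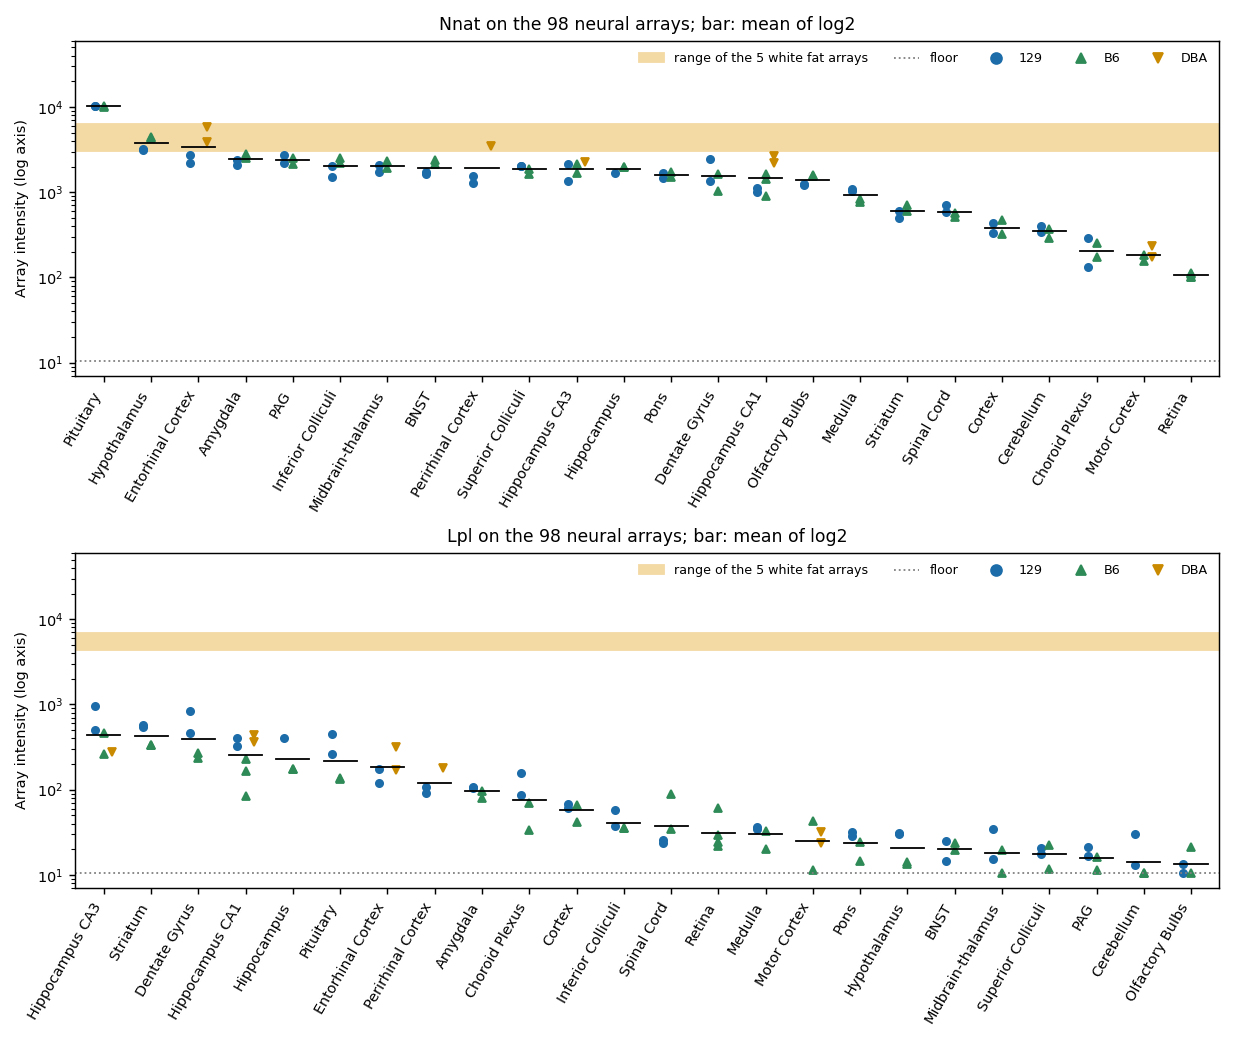
Intensity (log axis) of Nnat and Lpl on the 98 neural arrays by tissue, ordered by the mean of log2 (bar), with 1 symbol per array coloured by strain; the band is the range of the 5 white fat arrays and the dotted line the floor. Nnat in pituitary lies above the white fat band, and Lpl is highest in CA3, striatum and dentate gyrus and below the band everywhere.

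Lpl differed between 129 and B6 across the neural tissues, by a margin close to the threshold. In the 20 neural tissues with both, 39 arrays of 129 and 41 of B6, Lpl was 0.60 ± 0.11 higher in 129 (adjusted p = 2.42e-05), 1.52-fold, just past the threshold of 1.5-fold. With the shared title identifiers as a random block it was also 0.60 (adjusted p = 5.97e-05). By the same rule, 0.669% of all genes were higher in 129 and 1.63% lower. It was higher in 129 in 17 of 20 tissues, most in pituitary, where 129 read 261 and 448 and B6 132 and 136, while spinal cord had the opposite order. Its adjusted p stayed under 0.05 in all alternatives run, but the difference fell under 1.5-fold with the 40th percentile as floor (0.42), without a floor (0.51), on the second probe set (0.58), with the identical arrays kept (0.56) and without any 1 of 12 arrays. Nnat differed by -0.08 ± 0.06 and Lep by 0.10 ± 0.05, and neither passed.

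Lep passed in 1 neural tissue, retina, at 1.06 ± 0.11, on the brighter probe set alone (0.31, adjusted p = 0.21, on the second). The second probe set was brightest in choroid plexus among neural tissues, 125 to 223 on 4 arrays, where the first was lowest. The probe sets thus ordered neural tissues differently.

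The genes with tissue patterns nearest to each of the 7, by Pearson's r of log2 tissue means over 34 tissues and 7224 genes, were as follows, as a description over tissues that share arrays and platform. Retn was nearest to Cidec (0.98), Pparg (0.94) and Aoc3 (0.93), an amine oxidase gene of the fat cell surface. Adipoq was nearest to Aoc3 (0.96), Fabp4 (0.95) and Cidec (0.94), and Fabp4 to Adipoq, the fatty acid carrier gene Cd36 (0.93) and Eif4ebp1 (0.93). Car3 was nearest to the liver and fat genes Hp (0.94), Pck1 (0.94) and Xdh (0.93). Lpl was nearest to Col4a1 (0.86), Cd36 (0.86) and Ppic (0.83), and Lep to the thyrotropin receptor gene Tshr (0.88), Ptges (0.87) and Crygc (0.86). Nnat was nearest to Blcap (0.91), the gene within which it lies on the RefSeq map, and to the imprinted genes Peg3 (0.86) and Ndn (0.86).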

How the data were processed

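The deposited table holds 1 intensity per probe set and array on a linear scale, 5.97% of them below 0. Which software, background correction and scaling the authors used is not given in the sources used here. No detection calls were used. Controls (66 of 12488 probe sets) were left out. Of the other 12422, 10855 had 1 symbol in the platform annotation, 396 several and 1171 none; the probe set with the highest mean log2 represented a gene.

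Values were floored at the 20th percentile of all values (10.4) and put on the log2 scale. A gene was tested if its strain-adjusted mean passed 5.73 (intensity 53.2) in at least 1 tissue of a fit. limma 3.58.1 in R 4.3.3 fitted tissue and strain to 50 body or 98 neural arrays; neural and lean tissues were compared over tissue means, and Benjamini-Hochberg adjustment ran over all genes tested. Calls needed an adjusted p under 0.05 and a log2 difference over 1, or 1.5-fold between 129 and B6. BL6 in the labels was read as B6. The scripts were tested on simulated data.

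The genes, the lists and their tests were chosen with earlier results of these data known. Besides all 7 measured genes, the text names up to 4 called genes with the largest difference per list in the main comparisons and the 3 genes nearest in pattern to each member. Genes outside this rule, marker genes among them, were named after their values were seen. Alternatives changed the floor, scaling, filter, probe set rule, variance model, block, reference tissues and arrays.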

Additional observations from a re-analysis of the deposited data

Results flagged for a closer look

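In groups of 4 to 10 arrays, 134 groups of a gene and a tissue were screened for a highest or lowest array whose gap to the rest exceeded Dixon's 95% critical value. The screen picked 6 groups, where about 6.7 (1 in 20 groups) would be picked by chance. In brown fat, the C3H array read 222 for Retn, below the other 4 at 608 to 899. In liver, the B6 array read 192 for Lep against 88.6 to 108. In spleen, the B6 array read 94.2 for Lpl against 157 to 180.3. In amygdala, 1 of the 129 arrays read 175 for Lep against 164 to 166, and in medulla 1 of the 129 arrays read 228 against 174 to 177. In pituitary, 1 of the B6 arrays read 9958 for Nnat against 10302 to 10325.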

How the results depend on the processing

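No paired analysis was possible because the replicate numbers were given in accession order. In its place, title identifiers shared across tissues were used as a random block (duplicateCorrelation), and 111 of 111 results kept their direction and side of the threshold. Of 199 counts of called genes recomputed under other settings, 193 stayed within 1.5 times the main count. The counts that left this range were the genes higher in 129 than in B6 in neural tissue, which fell from 1 to 0 with the 40th percentile as floor, without a floor, on the other probe set of Lep and Lpl (chosen after seeing the data) and with the identical arrays kept; the genes with a strain difference in the body, which rose from 0 to 1 without a floor; and the lower calls over 24 neural tissues, which fell from 14 to 6 on the other probe set. Leaving out 1 array at a time gave 0 to 1 for the 129 against B6 count, for the strain count in the body and for the genes lower in white than in brown fat. Of 1091 single values, 4 changed sign, none of them called: white minus brown under quantile normalization for Adipoq (0.68) and Lpl (0.32), and 129 minus B6 for Lep with the mean of probe sets (-0.021) or the other probe set (-0.14). Leaving out 1 array, white minus brown ran from -0.21 to 0.13 for Adipoq and from -0.090 to 0.27 for Car3. Differences below the floor of 10.4 cannot be seen.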
